A study of Mus musculus with 6 samples.

Results

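The baseline transcriptome of saline-treated MC38 tumors was described from 3 of the 6 libraries of a bulk RNA-seq study, chosen by their label, the treatment with saline. All 21958 genes of the deposited table were kept as members, of which 16151 had at least 1 read in any of the 3 tumors and 14183 had reads in every one of them. The study injected a manganese single-atom nanozyme or saline into subcutaneous tumors and sequenced their RNA, and the nanozyme-treated tumors are not described here. The saline group consisted of MC38 tumors grown under the skin of the right flank of wild-type male C57BL/6J mice, aged 6 to 8 weeks, which received 50 µL of saline into the tumor every 3 days from a tumor volume of about 60 mm3. Tumors were collected as bulk tissue at 800 to 1000 mm3. Neither the labels nor the methods state whether each library came from its own animal, so the spread between the 3 libraries may be partly technical.

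MC38 is a transplantable line from a chemically induced colon adenocarcinoma of a C57BL/6 mouse, so it grows in hosts of its own strain with an intact immune system. A bulk piece of such a tumor holds cancer cells together with the macrophages, lymphocytes, vessels and fibroblasts that enter it, and with tissue of the injection site such as skin, fat and muscle. Host cells are recognised only through genes that the cancer cells are thought not to use. In bulk RNA, fewer cells of a type and less RNA per cell cannot be told apart. Levels below are given as FPKM (fragments per kilobase of gene and per 1e6 reads counted in genes) in the order tumor 1, tumor 2 and tumor 3, which is only the numbering of the labels.

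The 3 libraries held 18439017, 16385028 and 14988588 reads assigned to genes, and 15339, 14982 and 15102 genes were detected. Between 10612 and 10856 genes reached 1 FPKM, between 4897 and 4997 reached 10 FPKM, between 347 and 363 reached 100 FPKM, and 14 or 15 reached 1000 FPKM. A gene without a read may still have a level of up to 0.163, 0.183 and 0.20 counts per 1e6 reads in tumors 1, 2 and 3, the limit that a count of 0 allows, which covers counting error only. Between pairs of tumors, Pearson's r of log expression across genes was 0.979 to 0.986, and genes are not independent replicates. Tumors 2 and 3 were the least alike pair, with 305 genes differing 2-fold or more, against 201 for tumors 1 and 2 and 215 for tumors 1 and 3. The deviation of a gene from its mean was correlated with gene length in tumors 2 and 3, with Spearman's rho across 11033 genes of -0.02, -0.24 and 0.24 in tumors 1, 2 and 3.

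The most abundant transcripts came from the translation machinery, the mitochondrial genome, chaperones and the cytoskeleton. The mitochondrial cytochrome c oxidase subunit mt-Co1 led with 4177, 3707 and 5164 FPKM, followed by the translation elongation factor Eef1a1 with 3872, 4054 and 3962 FPKM. Eef1a1 varied by only 1.05-fold between the tumors, whereas mt-Co1 varied by 1.39-fold, with its highest level in tumor 3. The cytosolic chaperone Hsp90ab1 had 2144 ± 201 FPKM and the secreted galectin Lgals1 had 2101 ± 154 FPKM (mean ± SD, n = 3). Prothymosin Ptma reached 1803 ± 64.4 FPKM, and B2m, the light chain shared by all MHC class I molecules, reached 1430 ± 57.0 FPKM (SD, n = 3). Of the 30 genes with the highest mean FPKM, 15 encoded ribosomal proteins, among them Rps2, Rplp0, Rps15 and Rplp1, each above 1500 FPKM on average.

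The list of 30 also held the translation elongation factor Eef2 (1380 ± 164 FPKM), the actin gene Actb (1066 ± 154 FPKM), the histone variant gene H3f3b (733 ± 57.8 FPKM) and the calcium-binding protein gene S100a11 (631 ± 85.4 FPKM). Another member was Hmga1, a chromatin protein of embryonic and transformed cells, with 727, 860 and 710 FPKM. Its relative Hmga2, added after its value was seen, had 118, 115 and 121 FPKM. The translationally controlled tumor protein Tpt1 had 892 ± 42.1 FPKM (SD, n = 3). None of the 30 genes reached a 2-fold range, the ratio of the highest to the lowest FPKM. Of all 11034 genes with a mean of at least 50 reads, 512, or 4.64%, did. With at least 200 reads, 208 of 8987 genes did, or 2.31%, a share at which few of 30 would be seen. No gene of the 30 stands in a leukocyte list, whereas Vim and Lgals1 stand in the list of the mesenchymal state.

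**Figure D1:**
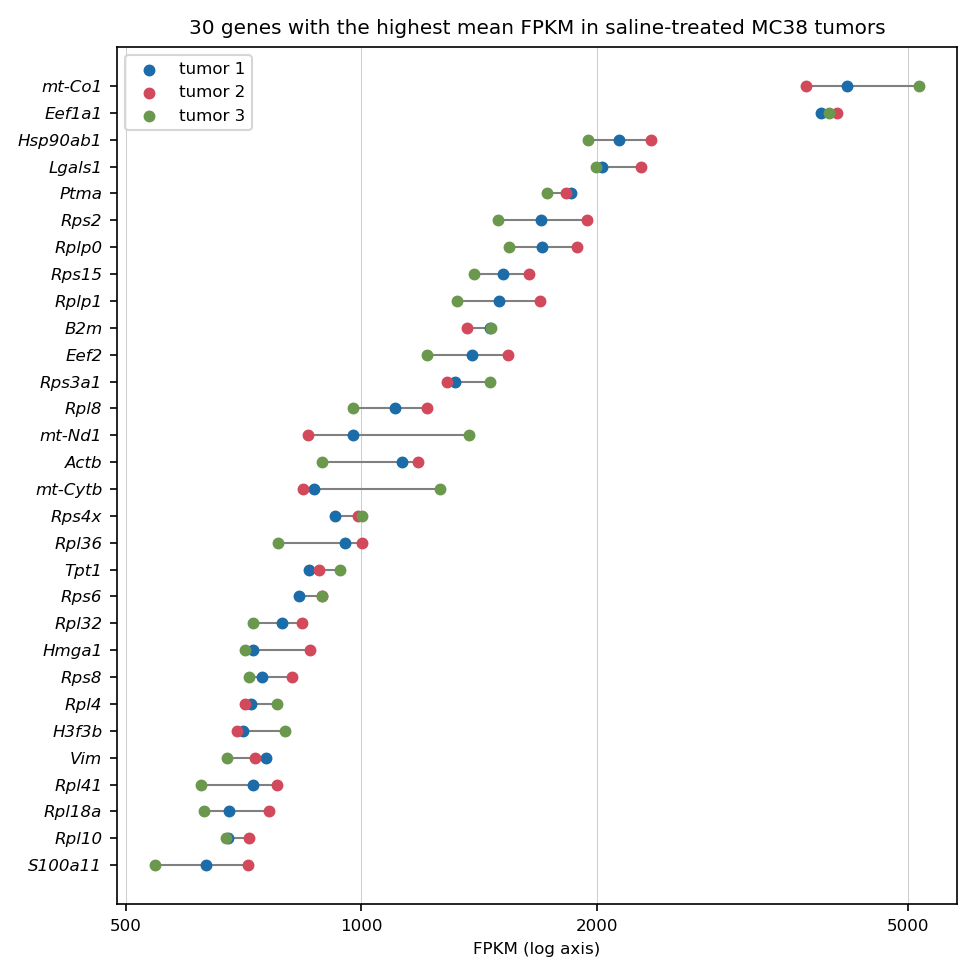
FPKM on a log axis of the 30 genes with the highest mean level, with 1 point per saline-treated tumor and a grey line over their range. mt-Co1 and Eef1a1 stand above all others, and the ranges are widest for the mitochondrial genes mt-Nd1 and mt-Cytb, which were highest in tumor 3.

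The reads were spread over many genes. The 10 most counted genes took 4.57%, 4.73% and 4.51% of the counts, the 100 most counted 16.9%, 17.3% and 16.4%, and the 1000 most counted 49.3%, 50.4% and 48.9%. The 83 ribosomal protein genes took 5.81%, 6.24% and 5.57% of the counts, which was 12.6%, 13.3% and 12.1% on the per-length scale, and none of the 79 past a mean of 50 reads differed 2-fold.

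The 13 protein-coding genes of the mitochondrial genome took 0.988%, 0.839% and 1.27% of the counts, with the lowest share in tumor 2. Their levels were very uneven, although the genes of the heavy strand are transcribed as 1 long precursor. Subunits mt-Nd1 (975, 854 and 1371 FPKM), mt-Cytb (870, 842 and 1262 FPKM) and mt-Nd2 (443, 344 and 545 FPKM) were abundant. In contrast, mt-Co2 had 24.2, 24.4 and 29.6 FPKM, mt-Co3 had 11.9, 7.86 and 12.6 FPKM and mt-Atp6 had 2.23, 1.88 and 3.92 FPKM. The share of a gene's 50-base words that also occur in transcripts of other annotated genes was 100%, 99.9% and 99.5% for mt-Co2, mt-Co3 and mt-Atp6, and 0% for mt-Nd1 and mt-Cytb. It was 98.0% for mt-Nd3 and 98.8% for mt-Nd4l, which were at 1.17 ± 0.517 and 0.204 ± 0.021 FPKM (SD, n = 3), whereas mt-Atp8 had no reads with a share of 0%. The low values of these genes are therefore given as uncertain, and the part of shared sequence in them was not tested. Within this list, mt-Nd5 (322, 117 and 407 FPKM) and the light-strand gene mt-Nd6 (159, 48.4 and 205 FPKM) differed most between tumors, both lowest in tumor 2. Without tumor 2, neither of them differed 2-fold.

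Other genes that every cell uses were also listed low. Gapdh had 115, 126 and 105 FPKM, far below other glycolytic genes such as Pgk1 with 463, 506 and 455 FPKM. Of its 50-base words, 82.5% occur in transcripts of other annotated genes, 218 in all. Its FPKM rests on 7953 reads on average and a listed length of 4133 bases, against 1420 bases for its longest annotated coding transcript. The part of length and of shared words in its level was not tested. The ribosomal protein gene Rpl23a had 11.2 ± 1.25 FPKM (SD, n = 3), with shared words of 82.6%. Gpx1, the cytosolic glutathione peroxidase, was listed at 0.113, 0.339 and 0.185 FPKM, and none of its words is shared. Of 596 genes examined in this way, 48 shared 50% or more of their words with another gene, and 448 shared under 5%. Such shares also stood beside high levels, with 72.2% for Eno1, 69.1% for Hmga1 and 59.2% for Eef1a1.

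The markers of colon epithelium were almost absent from these tumors of a colon carcinoma line. The list of 22 epithelial genes summed to 10.7, 8.86 and 7.44 FPKM, and 20 of them averaged under 1 FPKM. Epcam, the adhesion molecule used to mark carcinoma cells, had 18, 2 and 3 reads (0.445, 0.0556 and 0.0912 FPKM). The keratins of simple epithelia were close to 0, with 9, 0 and 1 reads for Krt8 and 8, 0 and 0 reads for Krt18. The intestinal transcription factors Cdx1 and Cdx2, the goblet cell peptide Tff3 and the epithelial splicing factor Esrp1 had no reads in any of the 3 tumors. Only Cdh1, the E-cadherin gene, and Lgals4, an intestinal galectin, passed a mean of 50 reads. Cdh1 had 7.02, 6.58 and 3.95 FPKM, and Lgals4 had 1.66, 1.79 and 2.62 FPKM.

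Genes of the mesenchymal state were abundant, with similar sums in the 3 tumors. The list of 15 genes summed to 4171, 4282 and 3914 FPKM, of which Lgals1 held about 2000. Of the 14 genes past a mean of 50 reads, 0 differed 2-fold, against 4.64% of all genes, a share at which few of 14 would be seen. The intermediate filament Vim had 756, 731 and 674 FPKM, the matrix protein Sparc had 429, 363 and 358 FPKM, and the collagen-binding protein Tgfbi had 260, 239 and 216 FPKM. The integrin subunit Itgb1 had 262 ± 25.9 FPKM, the hyaluronan receptor Cd44 had 178 ± 6.28 FPKM and fibronectin, Fn1, had 153 ± 30.7 FPKM (SD, n = 3). S100a4, often used as a fibroblast and metastasis marker, was listed at only 1.64 ± 0.691 FPKM, with 56.4% of its words shared with other genes. Fibroblasts, vessels and macrophages use many of these genes as well, so the list is not a measure of cancer cells alone.

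Proliferation genes were high with little spread. All 24 cell cycle genes passed a mean of 50 reads, and they summed to 1349, 1444 and 1338 FPKM. None differed 2-fold, against 4.64% of all genes, a share at which few of 24 would be seen. Cyclin D1, Ccnd1, had 166, 176 and 144 FPKM, the replication helicase subunit Mcm5 had 109, 123 and 102 FPKM, and the sliding clamp Pcna had 100, 106 and 108 FPKM. Mki67, the classical proliferation marker, was lower at 29.0, 19.7 and 32.3 FPKM. The widest range in the list, 1.67-fold, was that of the mitotic checkpoint kinase Bub1 with 17.5, 14.6 and 24.4 FPKM.

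Genes of colon cancer pathways had a median range of 1.15-fold, near the 1.21-fold of all genes. Of the 21 past a mean of 50 reads, 0 differed 2-fold, against 4.64% of all genes, a share at which few of 21 would be seen. The tumor suppressor Trp53 had 115, 125 and 131 FPKM, the oncogene Myc had 117, 102 and 116 FPKM, and Ctnnb1, which encodes beta-catenin, had 94.4, 92.5 and 95.7 FPKM. The Wnt pathway suppressor Apc had 4.52, 3.23 and 5.54 FPKM. The genes that carry known MC38 neoantigens were all read, with 13.1, 13.6 and 11.1 FPKM for Dpagt1, 11.2, 12.1 and 11.4 FPKM for Reps1 and 6.46, 7.0 and 6.26 FPKM for Adpgk. The table counts genes and cannot show the mutated alleles.

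Glycolytic and hypoxia genes summed to 3032, 3311 and 2743 FPKM, with the highest sum in tumor 2. A 2-fold range was seen for 0 of 21, against 4.64% of all genes, a share at which few of 21 would be seen. Besides Pgk1, pyruvate kinase Pkm had 463, 503 and 394 FPKM, enolase Eno1 had 432, 488 and 392 FPKM and lactate dehydrogenase Ldha had 395, 437 and 357 FPKM. The glucose transporter Slc2a1 had 47.6, 61.6 and 39.1 FPKM and hexokinase Hk2 had 20.8, 28.5 and 17.3 FPKM, both highest in tumor 2. Txnip, whose product is an inhibitor of glucose uptake and of thioredoxin, was lowest in tumor 2 with 28.8, 12.7 and 43.1 FPKM. It was chosen after its values were seen.

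Immediate early genes, which are transcribed within minutes of a stimulus or of handling, were led by Klf4 (140 ± 18.5 FPKM) and Jun (118 ± 15.7 FPKM), while Fos had only 2.89 ± 0.753 FPKM (SD, n = 3). None of the 19 differed 2-fold, while 2 of 11 heat shock genes did, or 18.2%, against 4.64% of all genes. The inducible chaperone Hspa1b had 33.0, 23.3 and 81.2 FPKM and Hsp90aa1 had 108, 82.4 and 172 FPKM, both highest in tumor 3 and lowest in tumor 2, and without tumor 3 neither differed 2-fold. Hspa1b shares 62.3% of its words with other genes, its near-copy Hspa1a among them.

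Genes that handle peroxide, the substrate of the nanozyme, and superoxide summed to 1118, 1157 and 1077 FPKM. Thioredoxin Txn1 had 249, 246 and 241 FPKM, peroxiredoxin Prdx1 had 137, 150 and 143 FPKM, and the lipid peroxidase Gpx4 had 96.5, 102 and 91.5 FPKM. Glutathione reductase Gsr had 89.0 ± 6.84 FPKM (SD, n = 3). None of the 25 genes past a mean of 50 reads differed 2-fold, against 4.64% of all genes, a share at which few of 25 would be seen. The widest range was that of the extracellular superoxide dismutase Sod3, with 16.1, 10.8 and 8.28 FPKM.

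**Figure D2:**
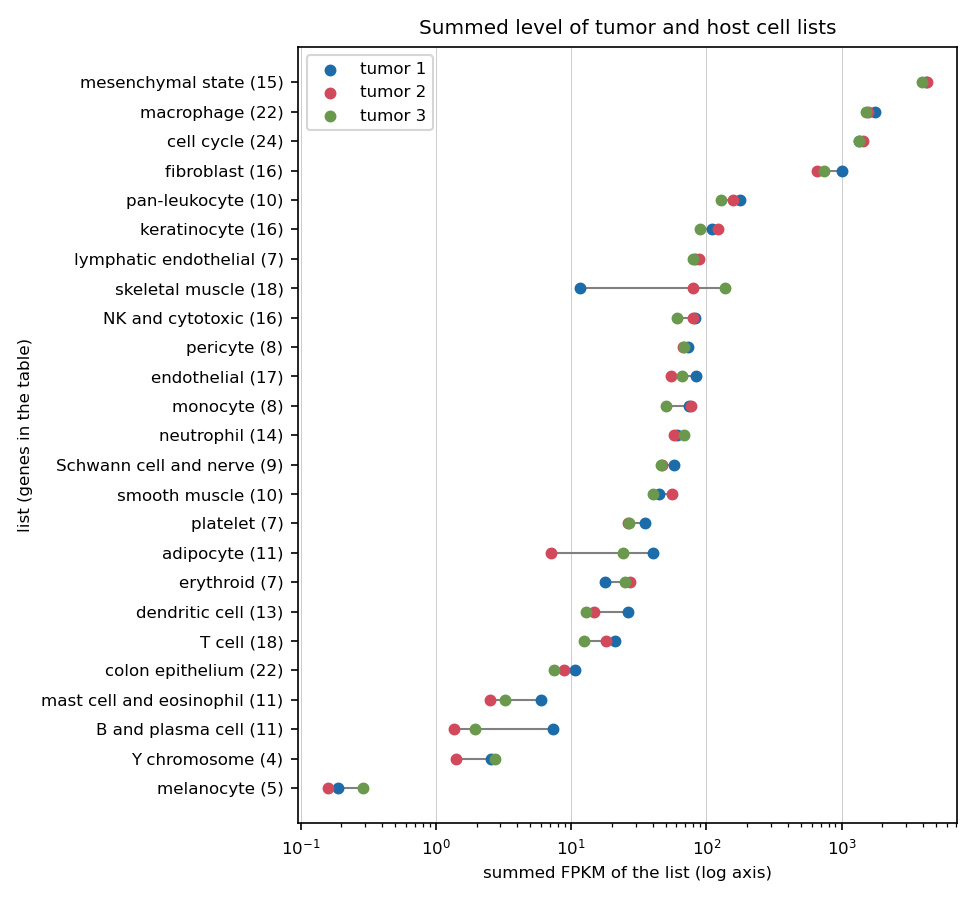
Summed FPKM on a log axis of 25 lists of tumor and host cell genes, with 1 point per saline-treated tumor, a grey line over their range and the number of listed genes in parentheses. Macrophage genes summed to 1514 to 1761 FPKM, colon epithelium genes to 7.44 to 10.7 FPKM, and the widest range is that of skeletal muscle, at 11.7 to 136 FPKM.

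Among host cells, macrophage genes were by far the highest of the leukocyte lists. The list of 22 genes summed to 1761, 1572 and 1514 FPKM, and every gene in it passed a mean of 50 reads. Lysozyme Lyz2 had 478, 475 and 441 FPKM, and Spp1, which encodes osteopontin and is also made by many carcinoma cells, had 340, 322 and 459 FPKM. The complement genes C1qa (128, 102 and 66.7 FPKM), C1qb (107, 85.4 and 59.5 FPKM) and C1qc (50.1, 41.4 and 27.9 FPKM) kept 1 order in the 3 tumors, highest in tumor 1 and lowest in tumor 3. The macrophage growth factor receptor Csf1r had 18.2, 15.9 and 12.4 FPKM and Adgre1, which encodes F4/80, had 11.8, 11.9 and 7.81 FPKM. Arginase Arg1 (93.7, 108 and 46.3 FPKM) and nitric oxide synthase Nos2 (1.89, 1.97 and 0.767 FPKM), which compete for arginine, were both lowest in tumor 3. Together with the scavenger receptor Cd163 (1.5, 0.738 and 0.525 FPKM) they were the 3 of 22 genes, or 13.6%, with a 2-fold range, against 512 of 11034 genes, or 4.64%, over the whole table. Without tumor 3, 1 of the 3 kept such a range.

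Genes shared by all leukocytes summed to 179, 159 and 128 FPKM. Of the 10, 8 were highest in tumor 1 and 8 were lowest in tumor 3, without any of them differing 2-fold. At any range, the shares of all genes highest in tumor 1 or lowest in tumor 3 were not counted. The actin-bundling protein gene Lcp1 had 17.0, 15.4 and 11.2 FPKM and the integrin subunit Itgb2 had 23.7, 21.0 and 13.9 FPKM. Ptprc, which encodes CD45, had 1.5, 0.880 and 1.33 FPKM. Arhgdib, highest in the list with 43.0, 44.0 and 41.1 FPKM, was nearly equal in the 3 tumors.

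Monocyte genes were led by Chil3, a chitinase-like protein of alternatively activated myeloid cells, with 37.2, 48.7 and 14.8 FPKM, and Plac8 had 7.84, 4.29 and 2.14 FPKM, so that both were lowest in tumor 3, and without tumor 3 neither differed 2-fold. The chemokine receptor Ccr2 was alike in all 3 with 4.46, 3.87 and 4.31 FPKM. Neutrophil genes were sparse. Their sum of 62.1 ± 5.48 FPKM (SD, n = 3) came to 86% from the gelatinase Mmp9, which macrophages and tumor cells also use, while S100a8 and S100a9 had only 1.68 ± 0.0821 and 2.03 ± 0.993 FPKM, on 10 to 27 reads per tumor.

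Dendritic cell genes summed to 26.2, 14.7 and 12.8 FPKM, about 2-fold higher in tumor 1. Ccr7, the receptor that guides mature dendritic cells and naive T cells to lymph nodes, had 4.06, 0.710 and 0.607 FPKM, and the maturation marker Cd83 had 3.12, 1.42 and 1.06 FPKM. These were the 2 of 7 genes with a 2-fold range, against 4.64% of all genes, and without tumor 1 there were 0. The integrin Itgax had 7.50, 4.65 and 4.15 FPKM, whereas the lineage factor Zbtb46 was level at 1.35, 1.23 and 1.41 FPKM.

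T cell genes were near the limit of detection. Of 18, 15 averaged under 1 FPKM and only Tcf7 and Lck passed a mean of 50 reads. The CD3 chain gene Cd3e had 23, 16 and 1 reads (0.306, 0.239 and 0.0164 FPKM), Cd3d had 20, 10 and 0 reads, and Cd8a had 28, 12 and 3 reads. These counts were lowest in tumor 3 for all 3 genes. Cd4 had 78, 22 and 14 reads. Tcf7, with 11.3, 11.8 and 9.28 FPKM, made 63% of the sum of 21.0, 18.2 and 12.5 FPKM and did not follow the CD3 genes. With Tcf7 left out, the highest sum was 3.06 times the lowest, against 1.68 times with it.

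Genes of natural killer and cytotoxic cells summed to 82.5, 79.0 and 60.5 FPKM, and none of the 7 past a mean of 50 reads differed 2-fold. Their leading members were the granzymes Gzmc (32.3, 34.2 and 20.1 FPKM), Gzmd (16.3, 16 and 18.1 FPKM), Gzmf (8.91, 7.84 and 7.40 FPKM) and Gzme (6.93, 7.26 and 6.12 FPKM), which lie in 1 cluster. Gzmb, the granzyme of killer lymphocytes, had 6.19, 4.59 and 3.11 FPKM and perforin, Prf1, had 2.01, 2.62 and 1.32 FPKM, a range of 1.99-fold. B and plasma cell genes summed to 7.38, 1.35 and 1.96 FPKM, and 79% of the mean sum came from the antibody joining chain Jchain with 286, 32 and 57 reads. Mast cell and eosinophil genes summed to 5.98, 2.53 and 3.27 FPKM, with the mast cell chymase Cma1 at 31, 2 and 10 reads. Both lists were highest in tumor 1.

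Endothelial and fibroblast genes also differed between the tumors, with their lowest sums in tumor 2. In contrast, smooth muscle genes (44.8, 55.6 and 40.2 FPKM) had their highest sum there. The lymphatic sum (82.2, 88.2 and 79.2 FPKM) was highest there only through Pdpn, which held 97.7% of it. Without Pdpn, lymphatic genes summed to 2.56, 1.25 and 1.95 FPKM, lowest in tumor 2. Pericyte sums were nearly level, with 73.7, 67.0 and 68.2 FPKM, and the receptor gene Pdgfrb held 38.6% of the mean sum. By gene, 5 of the 7 pericyte genes past the minimum of reads were lowest in tumor 2, and 1 each in tumors 1 and 3. Their median range was 1.48-fold. The 1 pericyte gene with a 2-fold range was lowest in tumor 2, and with TMM scaling 0 had such a range. Endothelial genes summed to 83.7, 54.7 and 66.2 FPKM, and 13 of 16 were lowest in tumor 2. The share of all genes lowest in tumor 2 at any range was not counted. The vascular cadherin Cdh5 had 14.2, 9.44 and 11.1 FPKM, the fenestral protein Plvap had 18.6, 13 and 13.3 FPKM, and the angiopoietin receptor Tek had 1.14, 0.311 and 1.33 FPKM. Tek, Tie1 and Egfl7 were the 3 of 16 with a 2-fold range and were lowest in tumor 2, against 2.75% of all genes, and without tumor 2 there were 0. Lymphatic genes other than Pdpn were scarce, with the chemokine Ccl21a at 0 reads throughout, an uncertain value because 71.6% of its words are shared. Pdpn itself, which fibroblasts and tumor cells also use, had 79.6, 87.0 and 77.2 FPKM.

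Fibroblast genes summed to 1003, 661 and 742 FPKM, and 12 of the 15 past a mean of 50 reads were lowest in tumor 2. As for the endothelial list, no share over all genes stands beside this count. The fibrillar collagen genes Col3a1 (245, 157 and 191 FPKM) and Col1a1 (241, 138 and 124 FPKM) were highest in tumor 1. Col6a3 had 176, 156 and 160 FPKM, a range of 1.13-fold. A 2-fold range was seen for 4 of 15 genes, or 26.7%, against 4.64% of all genes, namely Dpt (12, 2.05 and 3.87 FPKM), Postn (33.1, 13.9 and 31.1 FPKM), Lum (6.58, 3.54 and 7.99 FPKM) and Mfap5 (11.4, 5.20 and 6.99 FPKM). Dpt, Lum and Mfap5 encode proteins of the collagen and elastic fibre matrix, and Postn encodes periostin. Without tumor 1 there were 2 such genes and without tumor 2 there was 1. The pericyte receptor Pdgfrb had 26.8 ± 3.28 FPKM (SD, n = 3). It was also lowest in tumor 2, with 30.5, 24.3 and 25.7 FPKM.

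Adipocyte genes followed the same direction more strongly. All 4 past a mean of 50 reads had a 2-fold range and were lowest in tumor 2, a combination seen in 2.75% of all genes. The fat cell protease Cfd, or adipsin, had 322, 4 and 59 reads (18.9, 0.265 and 4.27 FPKM), a 71.5-fold range. The lipid carrier Fabp4 had 7.51, 3.25 and 5.86 FPKM, the carbonic anhydrase Car3 had 4.94, 1.13 and 8.13 FPKM, and lipoprotein lipase Lpl had 1.76, 0.763 and 2.06 FPKM. The more specific markers below the minimum were ordered likewise, with 61, 9 and 33 reads for Adipoq and 60, 3 and 21 reads for Plin1. Without tumor 1, 2 of the 4 genes had a 2-fold range past the minimum of reads, and without tumor 2, 1 of them had. Without tumor 1, Cfd fell below that minimum, so its difference between tumors 2 and 3 is not in this count. The acute phase protein haptoglobin, Hp, which fat, liver and myeloid cells make, had 62.0, 4.48 and 12.3 FPKM, and 108 genes in all, or 0.979%, shared this pattern, with a 2-fold range, the highest value in tumor 1 and the lowest in tumor 2.

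Skeletal muscle genes showed the widest range of all lists, in another order of the tumors. They summed to 11.7, 79.5 and 136 FPKM, and all 13 past a mean of 50 reads had a 2-fold range with the lowest value in tumor 1, against 0.39% of all genes. The actin of the sarcomere, Acta1, had 105, 1002 and 1555 reads (3.71, 39.8 and 67.5 FPKM), an 18.2-fold range. Myosin light chain Myl1 had 6, 98 and 150 reads, the fast myosin heavy chains Myh4 and Myh1 had 0.685, 2.20 and 6.03 FPKM and 0.230, 1.19 and 5.90 FPKM, and the oxygen store Mb had 4, 48 and 102 reads. The calcium pump of the sarcoplasmic reticulum, Atp2a1, had 0.827, 3.39 and 6.12 FPKM. Fast fibre genes led the list, while the slow myosin Myh7 had no reads, and neither did Tnnc2, the fast troponin C. Tnnc2 overlaps Ube2c on the other strand over 59.2% of its span and the strand setting of the counting is not given in the sources used here, so its value is uncertain. Without tumor 1, 5 of the 13 differed 2-fold past the minimum of reads, and without tumor 3, 10 did. Without tumor 3, Mb (0.145 and 1.96 FPKM) and Ckm (0.223 and 1.05 FPKM) fell below that minimum, so their differences are not in this count. Of the 30 genes with the widest range in the whole table, Acta1, Ttn, Mb, Myl1, Myh1, Myh4, Ckm, Tnnt3, Mylpf and Atp2a1 were members of this list. Mybpc1, Mybpc2, Xirp2, Actn2, Ryr1 and Klhl41, sarcomere and muscle genes outside the list, were also among these 30 and also lowest in tumor 1. Desmin, Des, placed in the smooth muscle list but shared with skeletal muscle, had 1.63, 9.95 and 7.32 FPKM, whereas the smooth muscle actin Acta2 had 18.3, 18.5 and 12.8 FPKM.

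Of 16 keratinocyte genes, 12 averaged under 1 FPKM. Krt14 had 99, 110 and 75.9 FPKM and made 88% of the keratinocyte sum, while its partner in basal epidermis, Krt5, had 5, 6 and 0 reads. Without Krt14 the list summed to 11.8, 12.8 and 13.9 FPKM, of which Sfn, the gene of 14-3-3 sigma, held 8.04, 9.50 and 8.85 FPKM and the keratin Krt10 held 1.77, 2.11 and 2.11 FPKM. Ivl, Krt15, Krt25, Krt71 and Dsg1a had no reads in any tumor, and the basal cell factor Trp63 had 3, 1 and 2 reads. The melanocyte genes Tyr, Dct, Mlana and Tyrp1 had no reads. Nerve-related genes came to 84% from the neurotrophin receptor Ngfr, with 49.0, 41.0 and 37.0 FPKM. Haemoglobin genes were low, with 9.39, 14.8 and 13 FPKM for Hbb-bs, and platelet genes came to 96% from the chemokine Pf4, which macrophages also use.

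Genes of the Y chromosome were read at low levels in these tumors of male mice. Ddx3y had 1.10, 0.599 and 1.28 FPKM, against 91.0, 90.7 and 121 FPKM for its X-linked counterpart Ddx3x, and Eif2s3y had 1.07, 0.572 and 1.04 FPKM, against 42.8, 42.9 and 46.7 FPKM for Eif2s3x. Both Y-linked genes were lowest in tumor 2, as were the endothelial, fibroblast and adipocyte sums. The sums of macrophage genes and of genes shared by all leukocytes were instead lowest in tumor 3. X-linked Ddx3x was also lowest in tumor 2, but Eif2s3x was lowest in tumor 1.

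**Figure D3:**
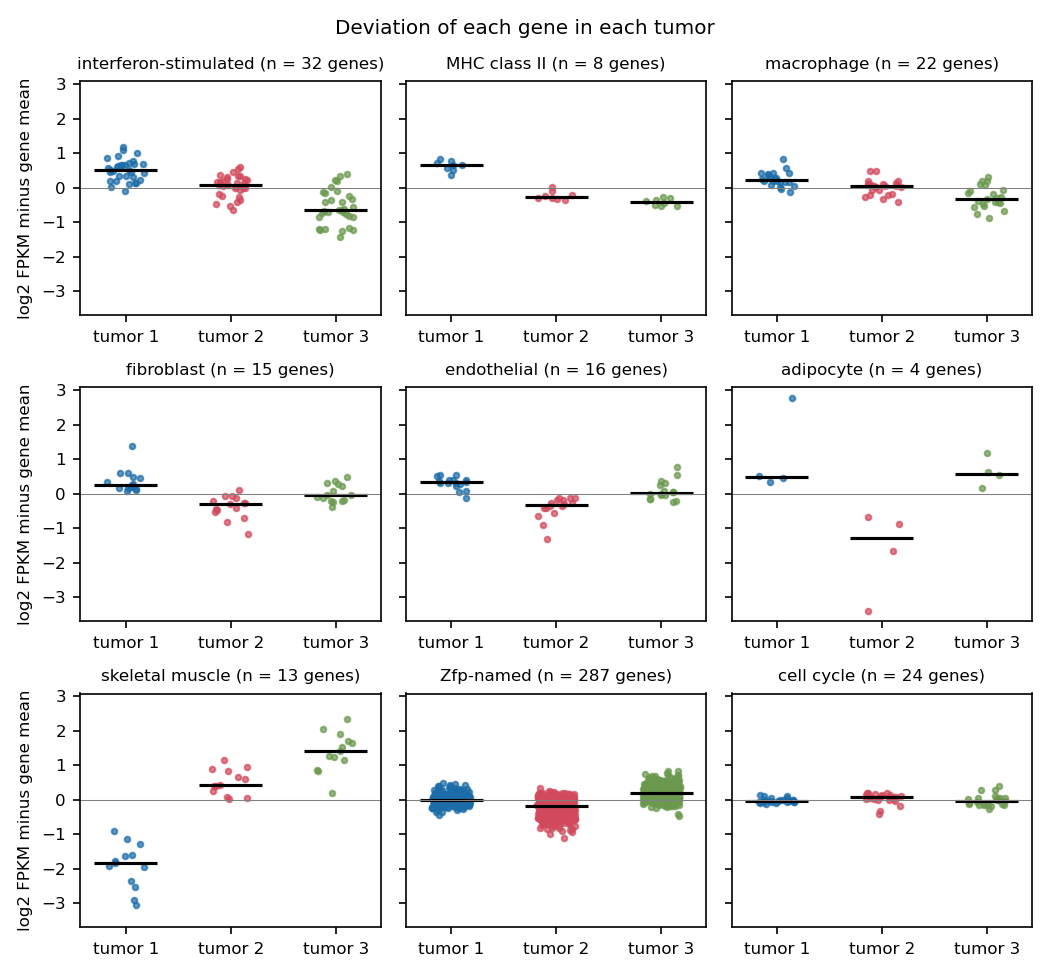
Log2 FPKM of each gene in each saline-treated tumor minus the gene's mean over the 3 tumors, for 9 gene lists and genes with a mean of at least 50 reads, with 1 point per gene and a black bar at the median. Skeletal muscle genes sit low in tumor 1, adipocyte genes low in tumor 2 and interferon-stimulated genes low in tumor 3, while cell cycle genes stay near 0 in each tumor.

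The cGAS-STING pathway was of interest to the study. In it, the enzyme cGAS senses DNA in the cytosol, its product activates STING, and the kinase TBK1 then activates IRF3, which drives type I interferon. Interferon acts through its receptor, the kinase JAK1 and transcription factors such as STAT2 and IRF9 on interferon-stimulated genes. Sting1 had 21.5, 19.5 and 13.4 FPKM and Cgas had 2.14, 2.46 and 2.25 FPKM. Tbk1 had 13.7, 11.3 and 14.5 FPKM and Irf3 had 8.30, 7.36 and 7.56 FPKM, with ranges under 1.5-fold. The receptor genes Ifnar1 (16.9, 14.7 and 16.5 FPKM) and Ifnar2 (6.06, 6.38 and 4.83 FPKM) and Jak1 (34.2, 31.8 and 38.2 FPKM) were likewise close between tumors. Of the interferon genes listed, Ifnb1 had 1, 2 and 1 reads, and Ifna2 and Ifna4 had none. Trex1, the exonuclease that clears cytosolic DNA, had none either, but it lies wholly within the span of Atrip on the same strand and 95.6% of its words are shared, so its value is uncertain.

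In the same list, 3 of 14 genes had a 2-fold range, and each was highest in tumor 1 and lowest in tumor 3, a combination with a 2-fold range that 1.29% of all genes had. Irf7, which amplifies the response, had 3.68, 2.76 and 1.15 FPKM, and Stat2 was also among them. Without tumor 3 there were 0 such genes, and without tumor 1 there was 1.

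Interferon-stimulated genes downstream showed the same order in larger number. The list summed to 510, 435 and 304 FPKM, and 22 of the 32 genes past a mean of 50 reads, or 68.8%, had a 2-fold range, against 4.64% of all genes. Of the 32, 21 had a 2-fold range with the highest value in tumor 1, as did 250 of all 11034 genes, or 2.27%. With such a range and the lowest value in tumor 3 there were 20 of the 32, and 166 of all genes, or 1.5%. The guanylate-binding protein gene Gbp2 had 44.5, 25 and 9.97 FPKM, on 2064, 1031 and 376 reads. The chemokine Cxcl9, which attracts activated T cells and is driven by interferon gamma, had 19.5, 11.7 and 3.43 FPKM, and its relative Cxcl10 had 10.8, 10.0 and 4.27 FPKM. The ubiquitin-like modifier Isg15 had 8.25, 7.73 and 2.28 FPKM and Ifit3, a protein that binds viral RNA complexes, had 4.04, 2.83 and 0.956 FPKM. Exceptions were Ifit2 (8.02, 7.15 and 10.9 FPKM) and the RNA-activated kinase Eif2ak2 (7.39, 5.48 and 9.66 FPKM), which were highest in tumor 3, and Trim25 (22.7, 21.7 and 19.5 FPKM), which was nearly level. The most abundant member, the membrane protein Ifitm3, had 234, 224 and 164 FPKM, a range of 1.43-fold. Without tumor 3, 4 genes of the list had a 2-fold range, without tumor 1 there were 10 and without tumor 2 there were 19, and the leukocyte sums of 179, 159 and 128 FPKM moved in the same order. Their part in these values was not tested.

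The transcription start regions of some of these genes carry the interferon-stimulated response element, which is bound by interferon regulatory factors. The letters GAAANNGAAA were searched on both strands of the RefSeq promoter windows (build GRCm38.p6), where matches that overlap each other were counted separately. The 4 windows below are shown because Gbp2, Isg15, Ifit3 and Cxcl10 were among the listed genes with a 2-fold range and hold the motif. Capitals mark each match, on the strand of the gene or as its reverse complement. Gbp2 lies at chr3:142620413-142620712 on the plus strand, Isg15 at chr4:156200769-156201068 on the minus strand, Ifit3 at chr19:34583279-34583578 on the plus strand and Cxcl10 at chr5:92348840-92349139 on the minus strand.
Gbp2: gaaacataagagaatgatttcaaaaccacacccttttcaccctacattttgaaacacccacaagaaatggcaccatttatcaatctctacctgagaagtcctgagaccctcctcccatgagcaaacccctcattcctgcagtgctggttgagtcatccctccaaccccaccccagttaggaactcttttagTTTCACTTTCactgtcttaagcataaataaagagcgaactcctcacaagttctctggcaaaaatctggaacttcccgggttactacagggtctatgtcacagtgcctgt
Isg15: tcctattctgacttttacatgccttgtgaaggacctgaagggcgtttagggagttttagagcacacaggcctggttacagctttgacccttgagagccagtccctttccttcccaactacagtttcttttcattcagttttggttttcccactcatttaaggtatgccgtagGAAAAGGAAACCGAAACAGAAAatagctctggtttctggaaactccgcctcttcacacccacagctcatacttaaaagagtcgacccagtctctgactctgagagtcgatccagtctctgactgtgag
Ifit3: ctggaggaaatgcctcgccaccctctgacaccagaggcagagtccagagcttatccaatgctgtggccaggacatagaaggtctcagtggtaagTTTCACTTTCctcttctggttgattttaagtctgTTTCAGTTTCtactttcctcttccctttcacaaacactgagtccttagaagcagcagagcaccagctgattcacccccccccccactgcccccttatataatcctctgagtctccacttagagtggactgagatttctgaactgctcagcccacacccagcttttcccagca
Cxcl10: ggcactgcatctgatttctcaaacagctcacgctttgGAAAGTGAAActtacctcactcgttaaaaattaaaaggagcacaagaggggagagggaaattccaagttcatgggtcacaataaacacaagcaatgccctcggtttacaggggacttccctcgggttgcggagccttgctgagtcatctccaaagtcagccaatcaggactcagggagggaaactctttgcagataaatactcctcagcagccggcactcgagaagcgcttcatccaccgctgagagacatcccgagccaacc

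Of the 26 list members with a promoter window, 16, or 61.5%, held a match, against 3.87% of 8826 genes past the minimum of reads and 3.99% of all 27025 genes with a window. Isg15 held 3 overlapping matches, Ifit3 held 2, and Gbp2 and Cxcl10 held 1 each, the one of Gbp2 beginning at position -59 relative to the start site. Among the 142 genes of the whole table with a 2-fold range, the highest value in tumor 1 and the lowest in tumor 3, 100 had a window and 25 of them, or 25%, held a match. These 142 include members of the interferon-stimulated list, so this share partly repeats that of the list. The share without them was not counted. Of 12 MHC class I genes with a window, 2 held a match to GAAANNGAAA, and none was found in the windows of 7 MHC class II, 14 skeletal muscle or 9 fibroblast genes, numbers at which few matches would be seen at the share of all genes. The window of Cxcl9, whose range was wider than that of Cxcl10, held none, and neither did that of Irf7. Windows of Eif2ak2, which was highest in tumor 3, and of Ifitm3, which had no 2-fold range, held 1 and 2 matches. A match is a description of the letters in the window and not of binding.

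**Figure D4:**
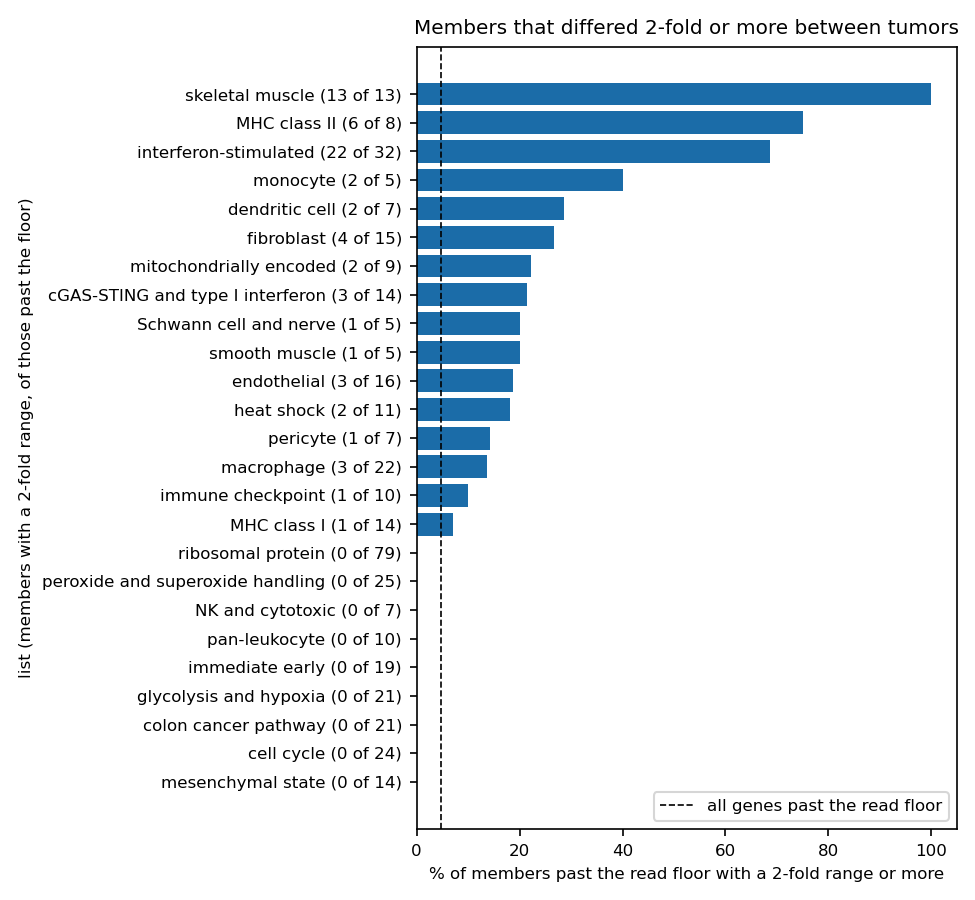
Percentage of list members past a mean of 50 reads whose highest FPKM was at least 2-fold the lowest of the 3 saline-treated tumors, for lists with 5 or more such members, with their numbers in parentheses. The dashed line marks 4.64% of all genes, which skeletal muscle (13 of 13), MHC class II (6 of 8) and interferon-stimulated genes (22 of 32) exceed most.

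MHC class II genes present antigen to helper T cells and are used by professional antigen-presenting cells. All 8 past the minimum were highest in tumor 1 and lowest in tumor 3. The share of all genes with this order at any range was not counted. A 2-fold range was seen for 6 of the 8, against 4.64% of all genes. The invariant chain Cd74 had 103, 53.9 and 51.7 FPKM, H2-Eb1 had 53.1, 23.8 and 21.2 FPKM, H2-Ab1 had 44.1, 21.9 and 18.1 FPKM and H2-Aa had 34.0, 16 and 15.8 FPKM. Tumor 1 stood apart here while tumors 2 and 3 were close. The master regulator Ciita had 0.978, 0.538 and 0.532 FPKM. Cd74 was just inside the rule, with a range of 2.002-fold, and Ube3a, at 1.995-fold, and Prf1 were just outside it. Without tumor 1, 0 of the 8 had a 2-fold range, and without tumor 3, 3 had. With TMM or RLE scaling 5 of the 8 had such a range, and with the length trend removed 4 had.

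MHC class I genes were abundant and close between tumors. Besides B2m, the heavy chains H2-D1 and H2-K1 had 539, 550 and 483 FPKM and 368, 352 and 305 FPKM. Among 14 genes, only the immunoproteasome subunit Psmb9, at 6.33, 5.45 and 2.53 FPKM, had a 2-fold range, against 4.64% of all genes. Of the checkpoint ligands and receptors, the phagocytosis brake Cd47 was highest at 50.6, 45 and 52.7 FPKM. Cd274, which encodes PD-L1 and is induced by interferon gamma, had 5.33, 4.06 and 1.75 FPKM and was the only 1 of 10 with a 2-fold range. In lists of 14 and 10 genes, 1 such gene is near the share of all genes. Psmb9 and Cd274 followed the order of the interferon-stimulated genes, and without tumor 3 neither had a 2-fold range.

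Over the whole table, most genes differed little. Among 11034 genes with a mean of at least 50 reads, the median ratio of the highest to the lowest FPKM was 1.21 (quartiles 1.12 and 1.37), 83.4% stayed under 1.5-fold and 45 genes reached 5-fold. The biological coefficient of variation, the spread left after counting error, was 0.150 for all genes together and 0.131 as the median gene's value. It was 0.101 for ribosomal protein genes, 0.106 for cell cycle genes, 0.286 for interferon-stimulated genes and 0.560 for skeletal muscle genes, as list medians. Among the 15 genes with the narrowest ranges were Acbd4, Eid1, Pigq, Tmed2, Rps12 and Arpc2. Acbd4, which encodes an acyl-CoA-binding protein, had 5.47, 5.44 and 5.45 FPKM.

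**Figure D5:**
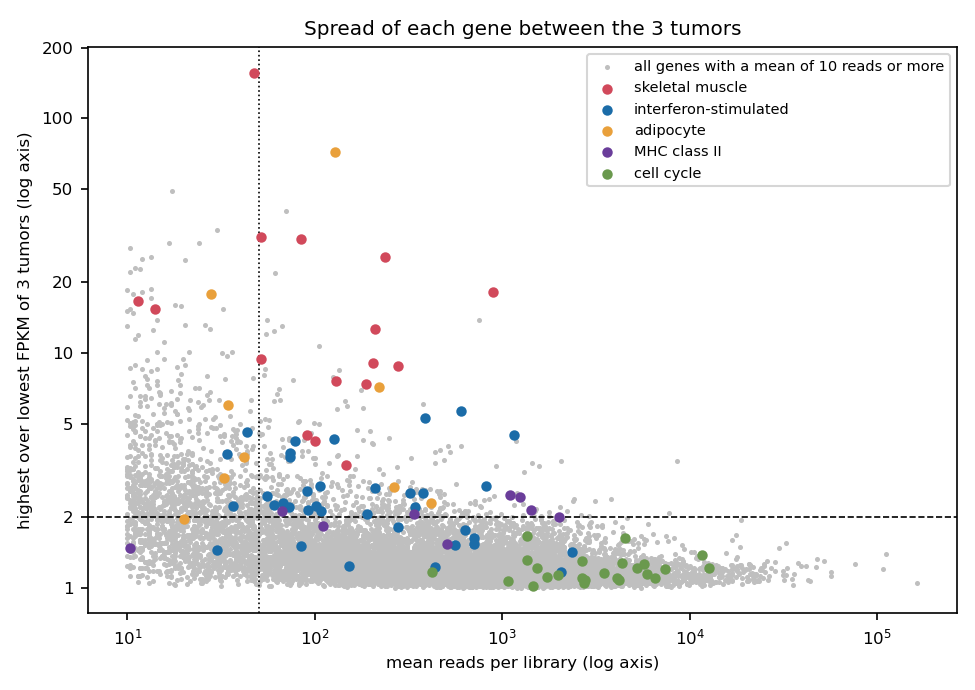
Highest over lowest FPKM of the 3 saline-treated tumors against the mean number of reads per library, both on log axes, for genes with reads in every tumor and a mean of 10 reads or more, with 5 lists in colour. The dotted line is the minimum of 50 reads and the dashed line a 2-fold range, which skeletal muscle and adipocyte genes exceed and cell cycle genes do not.

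The 512 genes with a 2-fold range fell into few patterns. Without tumors 1, 2 and 3 in turn, 286, 227 and 206 genes differed 2-fold between the tumors that were left. The highest value was in tumor 1 for 250 genes, in tumor 2 for 33 (0.299% of all genes) and in tumor 3 for 229 (2.08%), and the lowest was in tumor 2 for 303. The 142 genes highest in tumor 1 and lowest in tumor 3 included, besides interferon-stimulated genes, the eosinophil chemokine Ccl24 with 120, 47 and 0 reads, and Acod1, which makes itaconate in activated macrophages, with 124, 56 and 16 reads. The 34 genes (0.308%) highest in tumor 3 and lowest in tumor 1 held most of the muscle genes. Only 24 genes (0.218%) were highest in tumor 2 and lowest in tumor 3, and 9 (0.0816%) were highest in tumor 2 and lowest in tumor 1. Arg1, Nos2 and Chil3 were among the 24.

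The largest group, 195 genes (1.77%), was highest in tumor 3 and lowest in tumor 2, and 48 of them carried names of the Zfp series, which encode zinc finger proteins. This list was made after the values were seen. Of 287 Zfp-named genes past the minimum, 51 had a 2-fold range, against 4.64% of all genes. With such a range and the highest value in tumor 3 there were 49 of the 287, against 2.08% of all genes, and with the lowest in tumor 2 there were 50, against 2.75%. The 195 genes had a median length of 5628 bases, against 4676.5 bases for all genes past the minimum, and tumors 2 and 3 were the pair whose values followed gene length in opposite directions. With the trend on length removed, an alternative added after the data were seen, 38 of the 51 kept a 2-fold range. Without tumor 2, 1 of the 51 did, and without tumor 3, 10 did.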

How the data were processed

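RNA of bulk tumor tissue was sequenced, and the 3 saline libraries were taken by their treatment label. HISAT2 2.0 and mm10 stand in the processing notes of the submitters, without a role. No source used here names the counting program or its strand setting. The authors deposited 1 table with raw read counts per gene and FPKM values per gene and sample. Coordinates in that table match GENCODE M21 (GRCm38) start and end for 2.58% of 21901 genes, so its build is unclear and none are printed. No comparison with the nanozyme group was made and no test was run. Members, lists and alternatives were chosen with earlier results of these data known.

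Means and SDs of the deposited FPKM are over 3 tumors. A range is the highest over the lowest FPKM, for genes with a mean of at least 50 reads per library, and 2-fold is the threshold. Dispersions came from edgeR 4.0.16 (R 4.3.3) on the deposited counts with TMM scaling, checked on simulated data. Named genes were the 30 with the highest mean FPKM, the 30 widest and 15 narrowest ranges, and in each list the 4 highest members, the widest range and members at 0 reads. Other named genes were chosen after their values were seen. Shared 50-base words were counted against GENCODE M21 transcripts, and promoter windows came from RefSeq (GRCm38.p6). Alternatives were scaling, read minimum, pseudocount, length trend and leaving out each tumor. With a tumor left out, the minimum of 50 reads applied to the mean of the tumors left. A gene could therefore leave or enter such a count by its reads as well as by its range.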

Additional observations from a re-analysis of the deposited data

How the results depend on the processing

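The 512 genes with a 2-fold range became 1325 with a minimum of 10 reads, 208 with 200 reads, 2379 with at least 1 read in every tumor and 152 on FPKM + 1, and 481 and 491 with TMM and RLE scaling. With the length trend removed there were 437, of which 423 were among the 512. Leaving out each tumor gave 206 to 286 genes. The range of a gene over fewer tumors can only be equal or narrower, but the minimum of reads was also taken over the tumors left. Without tumors 1, 2 and 3, it was passed by 10889, 11104 and 11092 genes. Of the genes then found, 284, 212 and 191 were among the 512. The median coefficient of variation was 0.110 to 0.162 when a tumor was left out. The share of the 10 most counted genes was 8.50% on the per-length scale, and 4.54% to 4.65% without each tumor. Of 36 lists, 6 had sums that differed 2-fold, 1 without tumor 1, 4 without tumor 2 or tumor 3, 7 without each list's highest member and 7 on the TPM scale. The fold range of a list's sum moved by more than its spread in 10 of 35 lists without the highest member (the melanocyte sum was then 0 and gave no value), and in 15, 7 and 14 lists without tumors 1, 2 and 3. On FPKM + 1, 12 interferon-stimulated, 3 MHC class II and 5 Zfp-named genes had a 2-fold range, in place of 22, 6 and 51. No paired analysis was possible because a single group was described and no groups were compared. With 3 libraries of 14988588 to 18439017 reads, genes with few reads, among them most T cell and B cell genes, could not be ordered firmly between tumors.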
